A study of Mus musculus with 4 samples.

Results

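The mitochondrial ribosome makes the proteins encoded by the mitochondrial genome, all of them parts of the respiratory chain and the ATP synthase. Its RNA comes from that genome, while its proteins are encoded in the nucleus, made in the cytosol and imported. Genes named Mrpl encode proteins of the large subunit, which forms peptide bonds, and genes named Mrps encode proteins of the small subunit, which reads the messenger RNA. The members of both subunits descend in part from bacterial ribosomal proteins and are in part found only in mitochondria. Thymocytes that expand by division have to make new mitochondria, and autophagy can remove whole ones.

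The mitochondrial ribosomal protein genes were chosen by name, as the genes whose single symbol in the platform annotation starts with Mrpl or Mrps followed by a number. There were 76 such genes, 47 of the large and 29 of the small subunit by symbol, among 18193 genes named by the arrays. Each was read from its brightest probe set, the probe set with the highest mean signal over the 4 arrays. All 76 passed the filter on dim probe sets, and the RefSeq gene table still gave all 76 symbols. Mrpl30 and Mrpl53 were read only by probe sets that also carry another gene's symbol, and so were not members. The symbols do not match the place of every protein in the ribosome. In structures of the mammalian mitoribosome the products of Mrps18a and Mrps30 lie in the large subunit, and that of Mrps36 is known as a part of the alpha-ketoglutarate dehydrogenase complex.

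RNA from unsorted thymocytes of 2 Atg16l1 hypomorph mice and of 2 control mice was measured, 1 Affymetrix array per animal. The animals were 7 weeks old, with 1 male and 1 female in each group. The labels describe the controls as wild type and give neither the strain, nor how the hypomorphic allele was made, nor which array came from which sex. The ATG16L1 protein is needed to join LC3 to the membrane of the growing autophagosome, and a hypomorphic allele leaves a gene with reduced function. The Atg16l1 probe set had signals of 108 and 70.8 in hypomorphs (replicates 1 and 2), against 184 and 241 in controls, a log2 change of -1.57 and an adjusted p from limma of 0.0142.

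Signals are given as deposited. Log2 changes are hypomorph minus control on the log2(signal + 2.29) scale after each array was brought to a common median, so they understate the change of dim genes. That step left a median of 0.21 over the tested genes, and relative changes are the log2 change minus that median. All 8 listed thymocyte markers that the arrays name passed the filter, with summed centred signals of 26106 and 29147 in hypomorphs, against 24024 and 28855 in controls. Of these 8, 4 lay above and 4 below that median. All 5 B cell markers, 8 dendritic cell and MHC class II markers and 6 macrophage markers lay below it, with median relative changes of -0.69, -0.44 and -0.64. All 5 granulocyte markers lay above it, at a median relative change of 0.35. Summed signals of granulocyte markers were 2131 and 3641 in hypomorphs, against 622 and 5684 in controls, so the groups overlapped. Those of B cell markers were 422 and 437 in hypomorphs, against 544 and 675 in controls. Dendritic cell and MHC class II markers summed to 3335 and 3414 in hypomorphs, against 4251 and 3813 in controls, and macrophage markers to 526 and 318, against 585 and 495. None of these markers was called in limma. The 4 erythroid markers on the arrays were too dim to be tested. The part of other cell types in the results below was not tested. In RNA from unsorted cells, more cells of a type and more RNA per cell cannot be told apart. The spread between arrays here is between animals, 2 per group, and their number limits the precision of every value.

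Promoter windows are shown for 5 members because their sequence shows which motifs members hold: for Mrpl33 and Mrpl2, which had the largest log2 changes, for Mrpl57, which had the smallest, and for Mrps11 and Mrps12, which share a divergent promoter with another gene of mitochondrial translation. Each runs from 250 bases before to 50 bases after the start of the gene, 5′ to 3′ on the strand of the gene, and comes from RefSeq on GRCm38.p6. The arrays name no build. Capitals mark the motifs searched on both strands. These were the core of the ETS factor motif (CCGGAAG or CTTCCGG), the core of the NRF1 motif (GCATGCG or CGCATGC), the core of the YY1 motif (AAGATGG or CCATCTT) and the CCAAT box (CCAAT or ATTGG). ETS factors, NRF1 and YY1 are known to act at many promoters of nuclear genes for mitochondrial proteins. A match describes the letters and is not a binding site.
Mrpl33: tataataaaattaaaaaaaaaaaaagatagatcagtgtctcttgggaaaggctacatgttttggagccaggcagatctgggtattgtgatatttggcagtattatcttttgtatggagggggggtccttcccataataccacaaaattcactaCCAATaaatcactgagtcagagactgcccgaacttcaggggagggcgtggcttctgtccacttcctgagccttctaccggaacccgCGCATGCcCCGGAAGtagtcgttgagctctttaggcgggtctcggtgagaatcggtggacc
Mrpl2: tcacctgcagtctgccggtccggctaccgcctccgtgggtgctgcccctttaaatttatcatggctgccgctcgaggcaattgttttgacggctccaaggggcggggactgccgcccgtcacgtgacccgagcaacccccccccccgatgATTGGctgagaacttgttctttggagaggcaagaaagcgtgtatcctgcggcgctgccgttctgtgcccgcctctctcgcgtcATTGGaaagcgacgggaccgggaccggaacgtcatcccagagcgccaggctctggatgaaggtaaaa
Mrpl57: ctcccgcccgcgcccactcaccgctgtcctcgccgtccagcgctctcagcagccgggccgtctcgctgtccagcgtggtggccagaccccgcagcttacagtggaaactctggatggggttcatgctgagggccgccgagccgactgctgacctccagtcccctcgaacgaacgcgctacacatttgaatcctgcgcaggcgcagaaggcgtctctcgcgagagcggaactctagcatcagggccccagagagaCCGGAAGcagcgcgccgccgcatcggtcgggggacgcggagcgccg
Mrps11: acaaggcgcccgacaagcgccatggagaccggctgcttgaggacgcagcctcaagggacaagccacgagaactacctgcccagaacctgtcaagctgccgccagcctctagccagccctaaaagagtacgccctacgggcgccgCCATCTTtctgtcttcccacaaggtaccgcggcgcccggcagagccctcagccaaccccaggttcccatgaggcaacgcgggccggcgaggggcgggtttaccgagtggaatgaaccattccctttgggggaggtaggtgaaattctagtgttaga
Mrps12: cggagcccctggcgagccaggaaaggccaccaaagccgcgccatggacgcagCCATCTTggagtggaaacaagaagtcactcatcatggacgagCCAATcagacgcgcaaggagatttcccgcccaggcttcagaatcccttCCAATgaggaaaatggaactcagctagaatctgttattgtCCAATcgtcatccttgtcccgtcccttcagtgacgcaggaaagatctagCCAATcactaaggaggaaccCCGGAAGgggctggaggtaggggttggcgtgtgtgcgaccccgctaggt
The windows lie at chr5:31613701-31614000 (plus strand) for Mrpl33, chr17:46645971-46646270 (plus) for Mrpl2, chr14:57825989-57826288 (plus) for Mrpl57, chr7:78782881-78783180 (plus) for Mrps11 and chr7:28741772-28742071 (minus) for Mrps12. Mrpl33 held a CCAAT box, an NRF1 core and an ETS core, the last 2 with 1 base between them, starting at -11 and -3 from the first base of the gene. Mrpl2 held a pair of CCAAT boxes and none of the other cores, in the first listed of its 3 windows. Mrpl57 held 1 ETS core and Mrps11 held 1 YY1 core. Mrps12 held 6 matches, of which 4 were CCAAT boxes.

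No mitochondrial ribosomal protein gene passed the test, although nearly all had a log2 change above 0 under the reported scaling. In limma 0 of 76 members had an adjusted p under 0.05 in either direction, where 0.0293% of the 10232 tested genes were called higher and 0.0195% lower. The smallest adjusted p of a member was 0.125, that of Mrpl33. At an unadjusted p under 0.05, 35 members (46.1%) were higher and 0 lower, where 18.3% of the tested genes were higher and 0.909% lower. The log2 change was above 0 for 75 of 76 members, where it was above 0 for 82.6% of the tested genes. It was above the median of the tested genes for 52 members (68.4%), where 50% of the tested genes are by construction. The median log2 change of the members was 0.33, or 0.11 relative to the tested genes. Both hypomorph arrays lay above both control arrays for 59 members (77.6%) and below them for 0, where the background was 51.7% and 4.93%. This separation was counted under the reported scaling only.

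The numbers of members above 0 and past the unadjusted threshold followed the scaling. Above 0 were 75 of 76 members as reported, 64 with centring on the tested probe sets only, and 50 with quantile or with cyclic loess normalization. The last 2 each left a median log2 change of 0.02 over the tested genes. With quantile normalization 3 of 76 members (3.95%) were higher at an unadjusted p under 0.05, where 3.42% of the tested genes were. With centring on the tested probe sets only, which brought the median log2 change of the tested genes to 0.04, 5 members (6.58%) were, where 4.38% of the tested genes were. These shares are near their backgrounds, so the count of 35 is not by itself a result about the members. The median relative change was 0.074 with quantile normalization. Over the 15 alternatives run it ranged from 0.057 without control replicate 1 to 0.18 without the filter on dim probe sets, and so stayed above 0. Not all of these could move it. A shift of whole arrays, another variance model or a block for replicates leaves the relative change as it was. The value of 0.11 was therefore fixed when arrays were left uncentred or were centred on the tested probe sets. It was likewise fixed when the variance trend was dropped or the replicate block was added. These alternatives are no check of its sign. Without control replicate 1 the number of members higher at an unadjusted p under 0.05 was 9, and without hypomorph replicate 2 it was 11. The shares were then 11.8% and 14.5%, where 7.81% and 8.85% of the tested genes were.

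**Figure D1:**
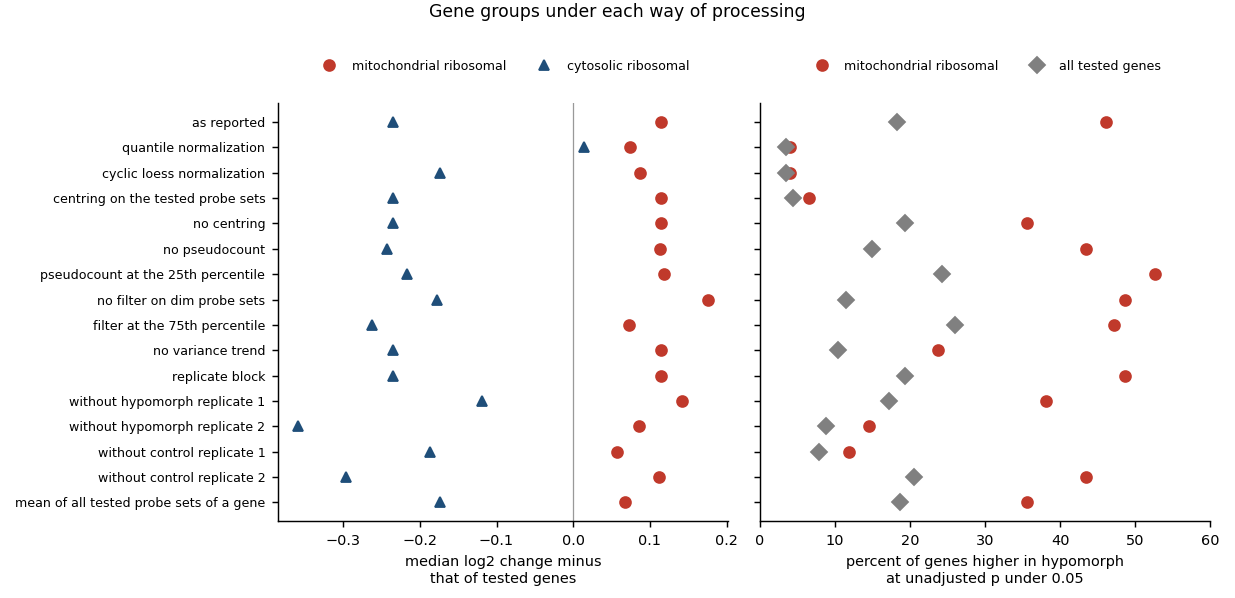
Left, the median log2 change (hypomorph minus control) of mitochondrial and of cytosolic ribosomal protein genes minus that of all tested genes, under the reported processing and 15 alternatives (rows). Right, the percentage of genes higher at an unadjusted p under 0.05; the mitochondrial ribosomal protein genes stand at 46.1% against 18.3% of tested genes as reported and at 3.95% against 3.42% with quantile normalization.

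The members moved within a narrow range, which was not particular to them. Their log2 changes ran from -0.04 for Mrpl57 to 0.78 for Mrpl33, with an SD across members of 0.15, where the SD across the tested genes was 0.28. The middle 50% of members lay between 0.20 and 0.40, and that of the tested genes between 0.07 and 0.34. For nuclear genes of the respiratory chain it lay between 0.15 and 0.32, with an SD of 0.17. For cytosolic ribosomal protein genes it lay between -0.06 and 0.06, a narrower span than that of the members. Their SD of 0.32 takes in the highest gene at 1.87, while the lowest was at -0.18. The median SE of a single member was 0.15, so the spread across members was about the size of the error of one. Under the reported scaling the 95% confidence interval excluded a 2-fold fall for all 76 members. It excluded a 2-fold rise for all but 3, Mrpl33, Mrpl50 and Mrps27. These intervals leave out the choice of scaling. The median log2 change of the members was 0.33 as reported, 0.097 with quantile normalization and 0.65 without centring. The interval under the reported scaling lay wholly above 0.21, the median over the tested genes, for 2 members, Mrpl33 and Mrpl2. It lay wholly below 0.21 for 0 members. The shares of all tested genes with such intervals were not counted, so these counts do not set the members apart.

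**Figure D2:**
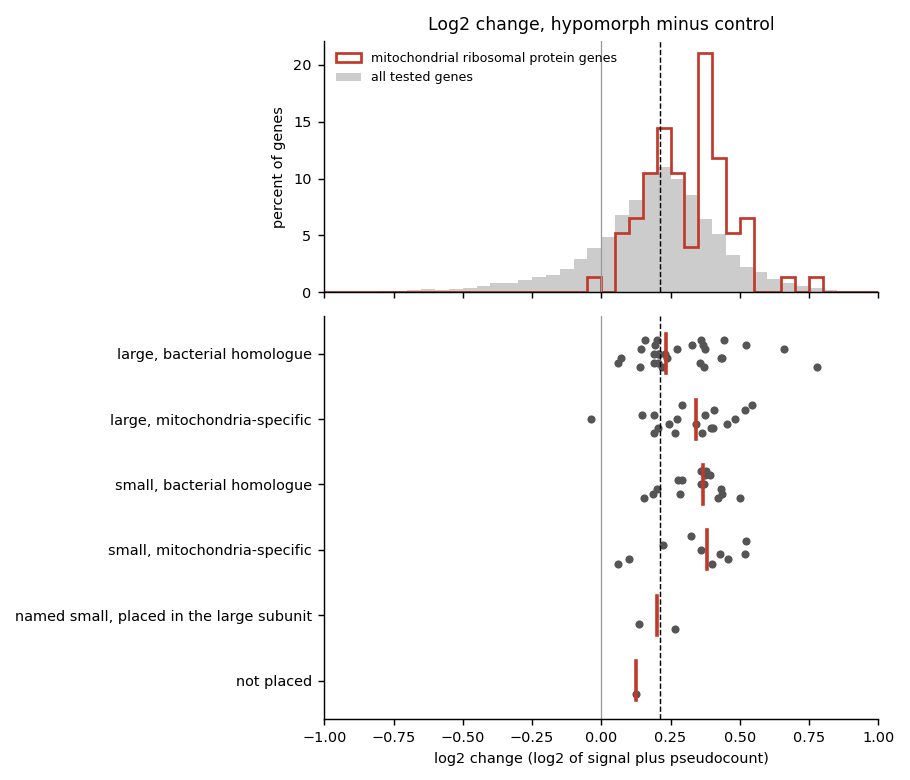
Top, the distribution of log2 changes (hypomorph minus control) of the 76 mitochondrial ribosomal protein genes and of the 10232 tested genes, in percent of genes per bin. Bottom, each member as a point in its class, with the class median as a red bar; the dashed line is the median of the tested genes at 0.21, and the class medians run from 0.12 to 0.38.

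Among large subunit genes Mrpl33 had the largest log2 change. It encodes the counterpart of bacterial protein L33, and its signals were 714 and 465 in hypomorphs, against 248 and 286 in controls. After centring its log2 signal was 9.09 and 8.93 in hypomorphs and 8.23 on both control arrays, so the groups did not overlap. The log2 change was 0.78 ± 0.14 (SE, n = 2 per group) and the adjusted p from limma was 0.125. Mrpl2, the counterpart of bacterial L2 near the site of peptide bond formation, had signals of 377 and 271 in hypomorphs and 145 and 177 in controls. Its log2 change was 0.66 ± 0.15 (SE) and the adjusted p from limma was 0.194. Leaving out any 1 array kept the relative change of Mrpl33 between 0.44 and 0.69 and that of Mrpl2 between 0.39 and 0.49. Neither passed the threshold in any of these fits.

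The next large subunit genes had log2 changes of about 0.5. Mrpl50, a protein found only in mitochondrial ribosomes, had signals of 204 and 110 in hypomorphs and 69.0 and 95.3 in controls, with a log2 change of 0.54. The hypomorph arrays differed more from each other here than in Mrpl33 or Mrpl2, and the relative change without hypomorph replicate 1 was 0.076. Mrpl55, the counterpart of bacterial L31, was at 192 and 180 in hypomorphs and 92.2 and 113 in controls, with a log2 change of 0.52. Mrpl49, another mitochondria-specific protein, was at 387 and 312 in hypomorphs and 153 and 242 in controls, with the same log2 change of 0.52. For these genes the hypomorph arrays lay above the control arrays after centring, and the adjusted p in limma was 0.251 to 0.284. They were named, like Mrpl33 and Mrpl2, for large log2 changes on the same arrays, so the separation is no further evidence. Mrpl40 and Mrpl54, both mitochondria-specific, had log2 changes of 0.48 and 0.45, and Mrpl9, the counterpart of bacterial L9, one of 0.44.

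At the other end of the large subunit stood Mrpl57, a small mitochondria-specific protein. Its signals were 1067 and 919 in hypomorphs, against 681 and 962 in controls. After centring these were 9.67 and 9.91 against 9.68 and 9.98 on the log2 scale, so the groups overlapped, at a log2 change of -0.04 ± 0.15 (SE). Mrpl17, the counterpart of bacterial L17, had a log2 change of 0.06, and Mrpl11, which lies at the base of the ribosomal stalk, one of 0.07. Mrpl1, of the mobile L1 stalk, was at 0.14, as was Mrpl13, while Mrpl41, which is mitochondria-specific and known to bind BCL2, was at 0.15 and Mrpl15 at 0.16. These log2 changes lay 0.05 to 0.25 below the median of the tested genes, and none had an adjusted p under 0.579 in limma. That order was not firm. Without control replicate 1 the relative change of Mrpl15 was 0.077, and without hypomorph replicate 2 those of Mrpl1 and Mrpl11 were 0.093 and 0.025. Over all tested probe sets of a gene, log2 changes ran from 0.14 to 0.39 for Mrpl13 and from 0.03 to 0.34 for Mrpl15. They ran from 0.07 to 0.40 for Mrpl11 and from 0.14 to 0.28 for Mrpl1, likewise reaching above the median of 0.21. Those of Mrpl41, 0.10 to 0.15, and of Mrpl57, -0.18 to -0.04, stayed below it.

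Among small subunit genes the largest log2 changes were those of Mrps27 and Mrps35, both mitochondria-specific. Mrps27, a protein of the pentatricopeptide repeat family, had signals of 114 and 80.4 in hypomorphs and 49.6 and 54.9 in controls, with a log2 change of 0.52 ± 0.23 (SE). Mrps35 had signals of 389 and 286 in hypomorphs and 156 and 218 in controls, also with a log2 change of 0.52. Mrps18c, a counterpart of bacterial S18, was brighter, at 1065 and 756 in hypomorphs and 441 and 577 in controls, with a log2 change of 0.50 ± 0.13 (SE) and an adjusted p from limma of 0.222. Mrps22, mutated in a human mitochondrial disease, had a log2 change of 0.46. In each of these 4 genes both hypomorph arrays lay above both control arrays after centring. The 4 were named for large log2 changes on the same arrays, so the separation is no further evidence. The adjusted p in limma was 0.222 to 0.245 for all but Mrps27, for which it was higher.

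The smallest log2 changes of small subunit genes were those of Mrps18b at 0.06 and of Mrps34 at 0.10. Mrps18b is another S18 relative, but both genes were classed here as mitochondria-specific. Mrps18b had signals of 202 and 135 in hypomorphs and 118 and 134 in controls, which after centring lay within 0.13 of each other on the log2 scale. Mrps36, the member known from another complex, was at 0.12, Mrps30 at 0.14 and Mrps7, the counterpart of bacterial S7 in the head of the subunit, at 0.16. Mrps34 had signals of 499 and 301 in hypomorphs and 248 and 334 in controls, and its groups overlapped after centring. Without hypomorph replicate 2 its relative change was 0.062, where it was -0.11 with all arrays.

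**Figure D3:**
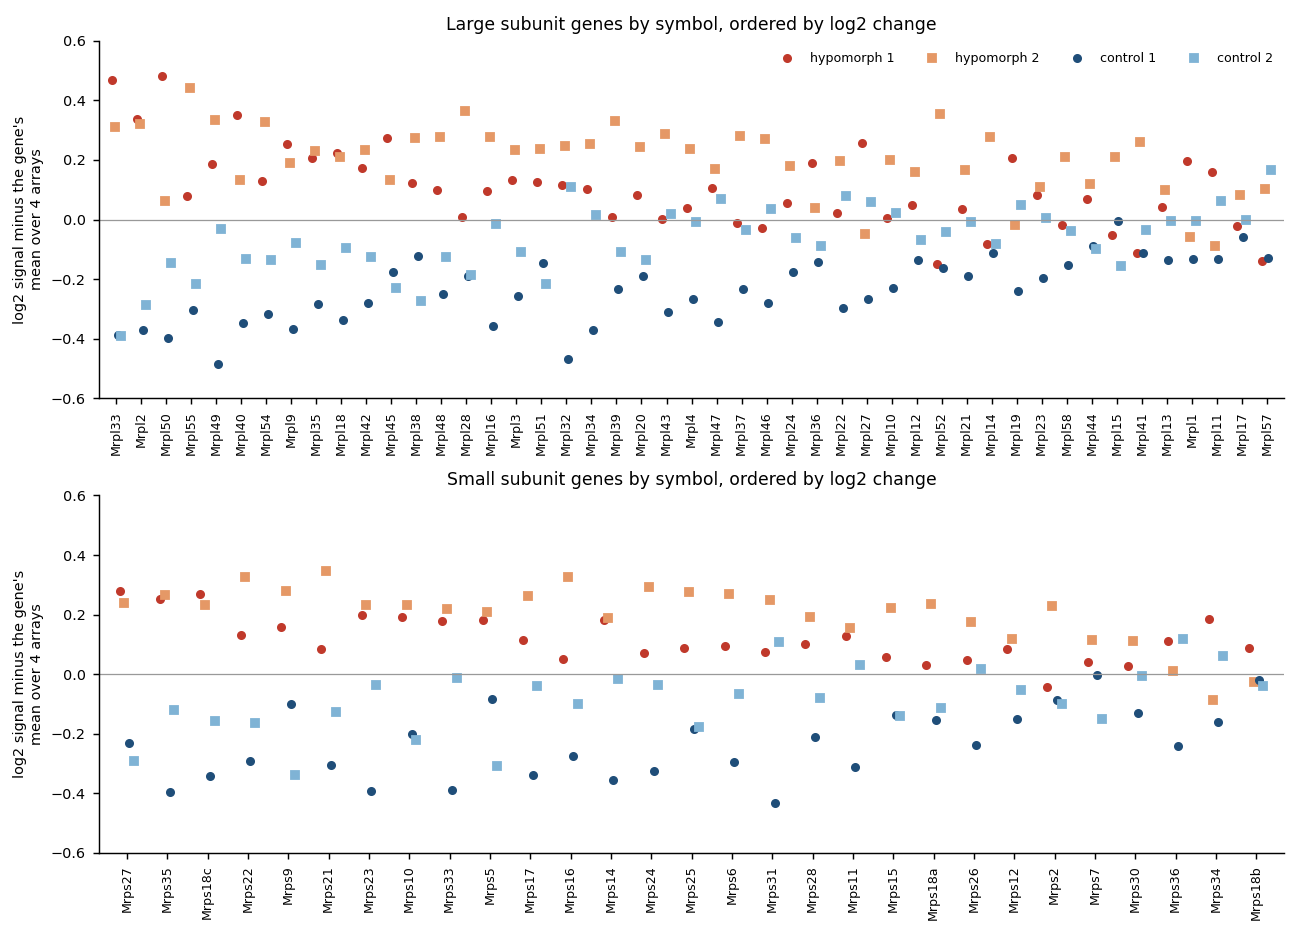
Log2 signal after centring of each of the 76 mitochondrial ribosomal protein genes on each array, minus the mean of the gene over 4 arrays, with large subunit genes above and small subunit genes below, ordered by log2 change. Hypomorph replicate 2 is the highest array for 58 members and control replicate 1 the lowest for 60. Because of the order, the groups draw together toward Mrpl57 and Mrps18b on the right.

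The difference between groups rested unevenly on the 4 arrays. After centring, the highest array was hypomorph replicate 2 for 58 members (76.3%) and hypomorph replicate 1 for 16, and it was control replicate 2 for 2. The lowest array was control replicate 1 for 60 members (78.9%). Over the tested genes hypomorph replicate 2 was the highest for 53.8% and control replicate 1 the lowest for 55.9%, so the same arrays stood at the ends for genes in general, at smaller shares. Relative to the tested genes, the median deviation of the members from their own 4-array means was 0.03 and 0.08 in hypomorphs, against -0.08 and -0.02 in controls. The groups did not overlap on this measure, yet the gap between hypomorph replicate 1 and control replicate 2 was about as large as the distance between arrays of 1 group.

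Large and small subunit genes were close to each other. The median log2 change was 0.28 over 47 large subunit genes and 0.36 over 29 small subunit genes. At an unadjusted p under 0.05, 19 large (40.4%) and 16 small (55.2%) subunit genes were higher, and 0 of either were lower, where 18.3% of the tested genes were higher and 0.909% lower. With quantile normalization 2 large and 1 small subunit genes were higher, so these counts too followed the scaling. Relative to the tested genes, the large subunit stood at 0.03 and 0.08 in hypomorphs, against -0.08 and -0.01 in controls. The small subunit stood at 0.03 and 0.08 in hypomorphs, against -0.08 and -0.03 in controls. On each array the subunits thus lay within 0.02 of each other. The difference of the median log2 changes, large minus small, was -0.09, and it was also -0.09 with Mrps18a and Mrps30 counted in the large subunit and Mrps36 left out. It was between -0.05 and -0.02 when single arrays were left out and 0.000041 when all tested probe sets of a gene were averaged. Members are not replicates, and no test was made of this difference.

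The split by descent gave a similar picture. For the 28 large subunit genes with a bacterial counterpart the median was 0.23, and for the 19 mitochondria-specific ones 0.34. In the small subunit the 16 genes with a bacterial counterpart were at 0.37 and the 10 mitochondria-specific ones at 0.38. Both hypomorph arrays lay above both control arrays for all 16 small subunit genes with a bacterial counterpart, where the background was 51.7%. The share was 70% for mitochondria-specific genes of the small subunit, and in the large subunit it was 71.4% with and 73.7% without a bacterial counterpart. These shares were counted only under the reported scaling, which left a median of 0.21 over the tested genes. Mrps18a and Mrps30 were at 0.27 and 0.14, within the range of either subunit.

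**Figure D4:**
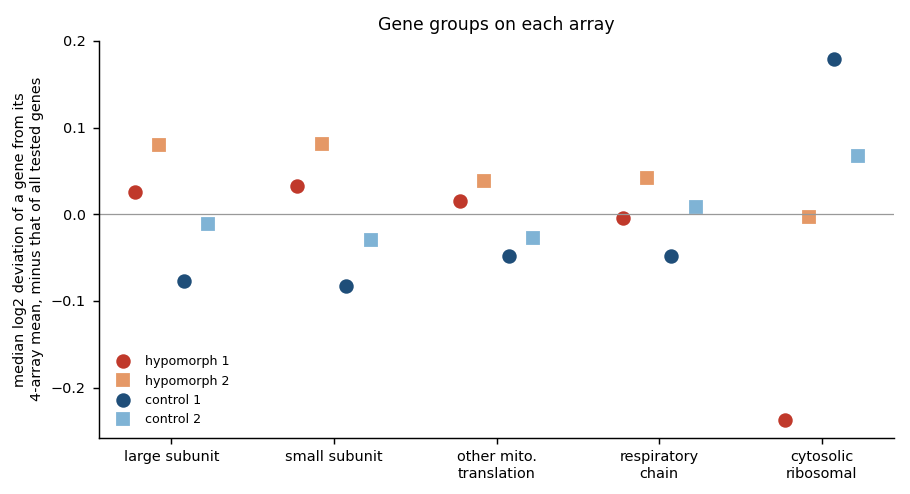
Median deviation of the genes of a group from their own 4-array mean on each array, minus the same median over all tested genes, on the log2 scale. Large and small subunit genes of the mitochondrial ribosome lie at 0.03 and 0.08 in hypomorphs and between -0.08 and -0.01 in controls, while cytosolic ribosomal protein genes reach -0.24 on hypomorph replicate 1.

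The members were brighter than most tested genes, and brightness was looked at separately. When the tested genes were divided into quintiles by mean signal, the next to brightest quintile held 34 members, the brightest 19, the middle 19, the next 4 and the dimmest 0. In the brightest quintile the median log2 change was 0.29 for members and 0.22 for the other genes. In the next to brightest it was 0.34 and 0.25, and in the middle quintile 0.28 and 0.24. In these 3 quintiles 12 of 19, 22 of 34 and 13 of 19 members lay above the median of the other genes. In the quintile with only 4 members the medians were 0.46 and 0.19.

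Further probe sets of the same genes had a smaller median log2 change, though not in every gene. The 76 genes had 156 probe sets, of which 133 were tested, and 33 genes had more than 1 tested. The other 57 tested probe sets, those that were not the brightest of their gene, had a median log2 change of 0.20, and 0 were called. The log2 change was above 0 for 44 of them, where it was above 0 for 82.6% of the tested genes. It was above 0.21, the median of the tested genes, for 28 of these 57 probe sets, so they showed no clear excess over the tested genes. They were dimmer, with a median mean signal of 127 against 364 for the brightest ones. All 3 Mrpl9 probe sets had log2 changes of 0.44 to 0.62. In Mrpl1, Mrpl11 and Mrpl13 the brightest probe set had the smallest log2 change of those tested. The widest span was that of Mrps11, chosen here after its values were seen, as were Mrpl34, Mrpl27 and Mrpl19. Its bright probe set had signals of 373 and 276 in hypomorphs and 173 and 253 in controls and a log2 change of 0.28. Its other probe set had signals of 32.0 and 40.5 in hypomorphs and 35.5 and 56.1 in controls and a log2 change of -0.62. Mrpl34, Mrpl27 and Mrpl19 likewise each had a dim probe set at -0.43, -0.51 and -0.52 beside a bright one at 0.35, 0.21 and 0.19. No adjusted p in limma among these was under 0.05. With all tested probe sets of a gene averaged, the median relative change of the members was 0.068.

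Other genes of mitochondrial translation were read from lists. Of the 82 tested genes on 5 lists together, 0 were called in limma, 19 (23.2%) were higher and 0 lower at an unadjusted p under 0.05, and 52 (63.4%) lay above the median of the tested genes. The share higher at that threshold was near the 18.3% of all tested genes. Their median relative change was 0.04. Mitoribosomal proteins with other names, 4 genes, had a median log2 change of 0.30. Among them Ptcd3, a pentatricopeptide repeat protein of the small subunit, had signals of 442 and 370 in hypomorphs and 210 and 229 in controls, with a log2 change of 0.55. Chchd1, also of the small subunit, was at 0.31 and Gadd45gip1, of the large subunit, at 0.28.

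The list of translation factors was a broad one that also held Oxa1l, Lrpprc and Slirp. Over its 13 tested genes the median was 0.36. At an unadjusted p under 0.05 in limma 5 (38.5%) were higher, where 18.3% of the tested genes were. Oxa1l and Lrpprc were among these 5. Oxa1l, which inserts new mitochondrial proteins into the inner membrane, had signals of 253 and 212 in hypomorphs and 91.1 and 135 in controls. Its log2 change was 0.72 ± 0.19 (SE), and its adjusted p from limma, 0.213, was the smallest on the 5 lists. The elongation factor genes Tufm and Gfm1 had log2 changes of 0.52 and 0.40. Other genes of this list did not rise with them, such as Tsfm at 0.02 and Gfm2 at -0.02. Of 19 tested mitochondrial aminoacyl-tRNA synthetase genes, which charge the tRNAs, 3 (15.8%) were higher at an unadjusted p under 0.05, a share below that of the tested genes, and their median was 0.25. The genes with the smallest p among them were Kars, which serves cytosol and mitochondria, at 0.47, Aars2 at 0.67 and Iars2 at 0.46.

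Assembly factors and enzymes that modify the ribosomal RNA, 25 tested genes, were at a median of 0.29, with 6 (24.0%) higher at an unadjusted p under 0.05, where 18.3% of the tested genes were. The assembly GTPase genes Mtg2 and Eral1 were at 0.45 and 0.39, and Ngrn, needed for the large ribosomal RNA, at 0.38. The 21 tested genes of mitochondrial transcription and RNA processing had a median of 0.22, with 3 (14.3%) higher at that threshold, a share below that of the tested genes. Tfam, which packages and transcribes mitochondrial DNA, was at 0.42, Hsd17b10, a subunit of mitochondrial RNase P, at 0.40 and the poly(A) polymerase gene Mtpap at 0.31. The adjusted p of each of these genes in limma was above 0.05.

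Set beside the mitochondrial ribosome, 2 other groups of genes with many subunits gave other medians. For the 44 tested cytosolic ribosomal protein genes the median was -0.02, or -0.24 relative to the tested genes. For the 75 tested nuclear genes of the respiratory chain and ATP synthase it was 0.26, or 0.05 relative. At an unadjusted p under 0.05, 2 (4.55%) of the cytosolic and 23 (30.7%) of the respiratory genes were higher, where 18.3% of the tested genes were under the same scaling. Relative to the tested genes the cytosolic genes stood at -0.24 and -0.00 in hypomorphs, against 0.18 and 0.07 in controls, so hypomorph replicate 1 stood apart. Without that array their median relative change was -0.12, and with quantile normalization it was 0.015, above 0. Cytosolic ribosomal protein genes are also much brighter, with a median mean signal of 7071 against 364. The difference between mitochondrial and cytosolic ribosomal protein genes was not tested.

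The same motifs were counted in the promoters of all members in the RefSeq table, 67 of 76, with 73 windows. The ETS core was in 34.2% of these windows, in 18.9% of those of other tested genes and in 8.86% of all windows of the table. The NRF1 core was in 11% of members' windows, 6.64% of those of other tested genes and 3.58% of all. The YY1 core was in 17.8%, 7.28% and 6.34% in the same order. The CCAAT box was in 39.7%, 37.9% and 37.4%, and counted per gene it was in 38.8% of members and 43.3% of other tested genes. At least 1 of the ETS, NRF1 and YY1 cores was in 50.7% of members' windows, 29.4% of those of other tested genes and 17.3% of all. No test was made of these shares. The median log2 change was 0.35 for 25 members with an ETS core and 0.33 for 42 without. It was 0.28 for 8 members with an NRF1 core and 0.35 for 59 without, and 0.28 for 13 with a YY1 core and 0.35 for 54 without. With a CCAAT box it was 0.35 for 26 members, and without one 0.29 for 41. No test was made of these differences either.

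**Figure D5:**
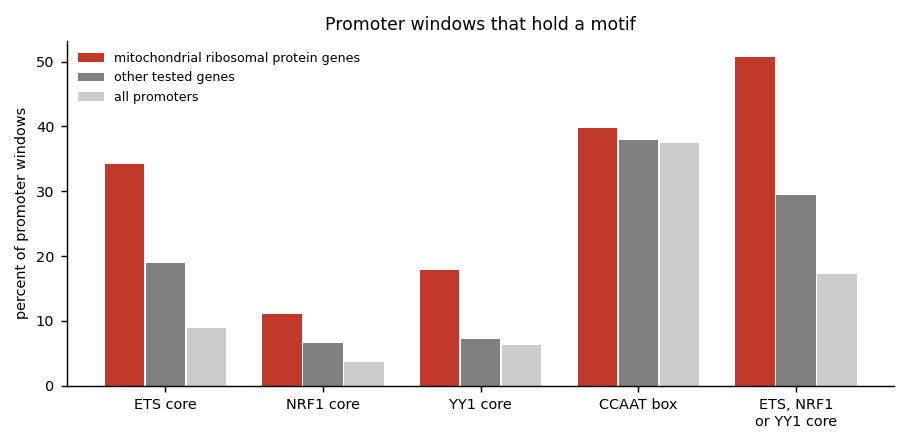
Percentage of promoter windows of 300 bases that hold each motif on either strand, for mitochondrial ribosomal protein genes (73 windows), for other tested genes and for all windows of the table. The ETS core is in 34.2%, 18.9% and 8.86%, while the CCAAT box is in 39.7%, 37.9% and 37.4%.

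Some members also start close to a gene that runs the other way. A start of another gene on the opposite strand, within 1000 bases and running away, was found for 25 of 67 members (37.3%), for 20.6% of other tested genes and for 12.3% of all genes in the table. Some of the partners act in mitochondria too. Mrps11 and Mrpl46, a small and a large subunit gene, start 42 bases apart, and their log2 changes were 0.28 and 0.24. Mrps12 starts 147 bases from Sars2, the mitochondrial seryl-tRNA synthetase gene, with log2 changes of 0.20 and 0.44. Mrpl43 starts 116 bases from Twnk, the helicase of mitochondrial DNA, with log2 changes of 0.29 and 0.26, and Mrpl47 lies 308 bases from the respiratory chain gene Ndufb5, at 0.27 and 0.35. Mrpl2, with a log2 change of 0.66, starts 141 bases from Klc4, a kinesin light chain gene with one of -0.19. Mrpl49, at 0.52, starts 192 bases from Fau, which encodes a cytosolic ribosomal protein fused to a ubiquitin-like protein, at 0.01. Neither partner was called, with adjusted p-values in limma of 0.649 and 0.975, and no difference within a pair was tested.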

How the data were processed

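The authors deposited 1 intensity per probe set on a linear scale, made with GCOS per the submitters' processing notes. Its scaling target and any detection calls were not analysed here.

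Affymetrix controls (64 of 45101 probe sets) were removed. In the platform annotation 34945 of the other 45037 probe sets had 1 gene symbol, 932 several and 9160 none. Intensities were put on the log2(signal + 2.29) scale, with the 10th percentile of all signals as pseudocount. Array medians were 38.4 and 27.4 in hypomorphs, against 23.5 and 27.4 in controls. On the log2 scale they spanned 0.66, over a limit of 0.3, so arrays were centred to a common median. Probe sets with a mean at or above the median, 22519 in all, entered a two-sided limma 3.58.1 fit (R 4.3.3, eBayes with a variance trend, no covariate), with Benjamini-Hochberg adjustment and a threshold of 0.05. It called 11 higher and 3 lower, and 3624 had an unadjusted p under 0.05. The 10232 tested genes are those whose brightest probe set entered. With 2 arrays per group the smallest exact permutation p is 0.333, so calls depend on the variance model. The fit was tested on simulated arrays with independent noise for each gene and no array-wide shift. That test therefore does not cover the shift over the tested genes that centring left.

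The members, lists and motifs were chosen with earlier results of these data known. The named genes are the 12 members with the largest and the 12 with the smallest log2 change, and up to 3 per list by p; other names were chosen after their values were seen. Promoters were matched by gene ID. Labels do not pair same-numbered arrays, whose deviations correlated at 0.08. Alternatives were quantile and cyclic loess normalization, centring on tested probe sets or none, other pseudocounts and filters, no variance trend, a replicate block, single arrays left out, and averaged probe sets.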

Additional observations from a re-analysis of the deposited data

How the results depend on the processing

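No member and no gene of the other translation lists was called under any of the 15 alternatives, the smallest adjusted p of a member in limma being 0.0545 with the filter at the 75th percentile. The count of called probe sets was 14 as reported, 4 with quantile normalization, 5 with cyclic loess, 7 with centring on the tested probe sets, 84 without centring, 4 without the filter, 0 without the variance trend (at 2492 with an unadjusted p under 0.05), 9 with the replicate block and 8 to 340 with single arrays left out (8 without control replicate 1, 22 without control replicate 2, 58 without hypomorph replicate 2 and 340 without hypomorph replicate 1). Members higher at an unadjusted p under 0.05 numbered 35 as reported, 3 with quantile normalization, 3 with cyclic loess, 5 with centring on the tested probe sets, 18 without the variance trend, 37 with the replicate block and 9 to 33 with single arrays left out. The cause of these changes was not tested.

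The median relative change of the members, 0.11 as reported, was 0.074 with quantile normalization, 0.18 without the filter, 0.073 with the filter at the 75th percentile, 0.068 with probe sets averaged and 0.057 to 0.14 with single arrays left out. That of the other translation genes, 0.04, was 0.099 without the filter, 0.019 with the filter at the 75th percentile, 0.057 with probe sets averaged and 0.042 to 0.065 with single arrays left out. The difference of large minus small subunit medians, -0.09, was -0.060 with quantile normalization, -0.073 with cyclic loess, 0.000041 with probe sets averaged and -0.047 to -0.021 with single arrays left out.

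Of 24 named members, some near the median of the tested genes changed the sign of their relative change. Without the filter Mrpl15 was at 0.0082 and Mrps7 at 0.0048. With single arrays left out the ranges were -0.18 to 0.077 for Mrpl15, -0.18 to 0.072 for Mrps7, -0.21 to 0.075 for Mrpl41, -0.25 to 0.093 for Mrpl1, -0.21 to 0.038 for Mrps36, -0.29 to 0.062 for Mrps34 and -0.31 to 0.025 for Mrpl11. Changes of the size seen here lie near the error of a single gene with 2 arrays per group.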
